A study of Mus musculus with 12 samples.

Results

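The ribosome-bound RNA of microglia was described in 6 wild-type spinal cord libraries of mice with experimental autoimmune encephalomyelitis (EAE), a T cell-driven model of multiple sclerosis. These are all the libraries labelled wildtype among the 12 of the series, and they carry the replicate numbers WT 7 to WT 12. The donors were female C57BL/6 mice that carried Tmem119-Cre and RiboTag. The other libraries, from mice in which Kdm6a was deleted, were not used, and no genotype comparison is made here. The labels give neither the age of the mice nor the day of disease, and they do not say whether each library came from a separate animal. Every spread below is therefore a spread between libraries. No library without EAE was analysed here, so no level can be assigned to the disease.

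RiboTag mice carry a form of the ribosomal protein Rpl22 that gains an epitope tag where Cre recombinase is active. Pulling down the tag from whole tissue recovers RNA on the ribosomes of those cells. Tmem119 is a membrane protein gene of microglia that most other brain macrophages lack, so the Cre driver limits the tag largely to microglia, while RNA of other cells can still stick during the pull-down. Microglia are the resident macrophages of the central nervous system. At rest they survey the tissue under the control of the receptors Csf1r and Tgfbr1, and they carry purine and fractalkine receptors such as P2ry12 and Cx3cr1. Around lesions and plaques they take up myelin and dying cells, digest them in lysosomes and export the lipid on apolipoprotein E, the state called disease-associated.

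The libraries held from 20386143 to 26296071 counts over 39017 Ensembl gene IDs. A level is given as counts per 1000000 (CPM), a gene's share of the library total, and, where genes are compared with each other, as transcripts per 1000000 (TPM), which divides by exon length first. A count of 3 corresponded to 0.114 to 0.147 CPM, a floor that reflects counting noise alone. Without molecular identifiers PCR copies of 1 molecule are counted separately, and the floor does not include the noise this adds. A total of 12654 genes reached 1 CPM in all 6 libraries and are called detected below (32.4% of all gene IDs). Before the values, 5 promoters are shown because their genes lead or mark groups described below and each holds a motif of a factor known in macrophages: the lysosomal protease Ctsd, the complement chain C1qc, the class I light chain B2m, and the interferon-induced genes Gbp2 and Cxcl10. Each is the 250 bases before the RefSeq gene start (GRCm38.p6), read 5′ to 3′ on the strand of the gene, with the motif match in capitals.
Ctsd, chr7:142387828-142388077, minus strand: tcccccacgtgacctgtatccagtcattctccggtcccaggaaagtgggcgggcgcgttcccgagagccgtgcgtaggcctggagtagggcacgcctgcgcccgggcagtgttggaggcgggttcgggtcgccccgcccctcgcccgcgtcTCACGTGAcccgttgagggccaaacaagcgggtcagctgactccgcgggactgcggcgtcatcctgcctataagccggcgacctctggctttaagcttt
C1qc, chr4:136892915-136893164, minus strand: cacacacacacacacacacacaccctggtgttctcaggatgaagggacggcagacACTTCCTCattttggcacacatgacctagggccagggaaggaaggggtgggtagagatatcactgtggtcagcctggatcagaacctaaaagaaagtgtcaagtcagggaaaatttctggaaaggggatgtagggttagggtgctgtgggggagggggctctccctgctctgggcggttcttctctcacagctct
B2m, chr2:122147437-122147686, plus strand: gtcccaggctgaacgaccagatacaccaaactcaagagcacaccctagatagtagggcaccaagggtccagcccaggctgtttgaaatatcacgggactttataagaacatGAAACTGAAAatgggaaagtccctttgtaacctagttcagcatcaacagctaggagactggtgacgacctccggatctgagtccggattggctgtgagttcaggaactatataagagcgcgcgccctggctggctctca
Gbp2, chr3:142620413-142620662, plus strand: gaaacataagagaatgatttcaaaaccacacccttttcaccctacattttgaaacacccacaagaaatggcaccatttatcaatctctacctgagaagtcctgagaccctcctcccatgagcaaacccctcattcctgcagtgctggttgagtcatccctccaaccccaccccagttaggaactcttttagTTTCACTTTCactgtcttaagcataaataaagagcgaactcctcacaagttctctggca
Cxcl10, chr5:92348890-92349139, minus strand: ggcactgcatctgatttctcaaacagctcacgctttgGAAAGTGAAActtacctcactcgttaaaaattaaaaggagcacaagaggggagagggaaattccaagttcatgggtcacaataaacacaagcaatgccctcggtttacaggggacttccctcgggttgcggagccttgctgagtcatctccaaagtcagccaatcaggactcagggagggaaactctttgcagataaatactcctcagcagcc
The capitals mark the lysosomal (CLEAR) motif TCACGTGA of the transcription factors Tfeb and Tfe3 in Ctsd, the PU.1 motif GAGGAAGT on the opposite strand in C1qc, and the interferon-stimulated response element (ISRE), GAAA followed after any 2 bases by GAAA, in B2m and Cxcl10 and, on the opposite strand, in Gbp2. The matches begin 99 bases before the RefSeq gene start in Ctsd, 195 in C1qc, 139 in B2m, 59 in Gbp2 and 213 in Cxcl10. In the annotation used for exon lengths, Ctsd starts at base 142388038 and C1qc at base 136893065, inside their windows. By that annotation the Ctsd match lies within the gene, and the C1qc match lies before it. Both strands were searched, and matches of different motifs overlapped in 1 of 32851 windows. The CLEAR letters stood in 1.89% of the detected genes with a promoter in the table, in 3 of 29 lysosomal hydrolase genes (Ctsa, Ctsd and Gla) and in 3 of 21 genes of the lysosomal membrane and proton pump (Atp6v1a, Cln3 and Mcoln1). They were not particular to these lists. They also stood in 2 of 23 homeostatic genes, 1 of 12 identity transcription factors and 1 of 30 disease-associated genes. The class II list had 1 of 10 and the class I list 1 of 20. The ISRE letters stood in 3.34% of detected genes, in 11 of 26 genes of the type I interferon list and in 8 of 12 of the interferon gamma list. The PU.1 letters stood in 2.95% of detected genes, in 1 of 23 homeostatic genes, 1 of 30 disease-associated genes, 1 of 14 complement genes (C1qc) and 0 of 12 identity transcription factors. A match is a string of letters and not a measured binding site.

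Apoe, the main lipid carrier of the brain, was the most abundant ribosome-bound transcript in every library by both scales. It took 159296, 119280, 121495, 107319, 83561 and 121108 CPM in WT 7 to WT 12. Its mean was 11.9% ± 2.46 of all counts (SD, n = 6), with WT 7 highest and WT 11 lowest. Ctsd, the aspartic protease of the lysosome, was second in every library by CPM, at 34351, 27286, 33109, 42659, 46566 and 40923 CPM in WT 7 to WT 12. Ctsd was lowest in WT 8 and highest in WT 11, the library where Apoe was lowest. Per length, Apoe stood 1.97 to 5.10 times above Ctsd, the lowest ratio of levels falling in WT 11. Together the 10 leading genes by mean CPM held 20.9% to 26.5% of the counts of a library, and the 50 leading genes 33.8% to 37.2%.

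The 3 chains of the complement recognition molecule C1q, which tags debris and synapses, held ranks 3, 4 and 8 by TPM. Mean TPM was 32949 for C1qa, 23179 for C1qb and 11744 for C1qc. The chains kept a near-fixed proportion, since the TPM ratio of C1qa to C1qb ran only from 1.37 to 1.51 and that of C1qa to C1qc from 2.68 to 3.04. The other protein-coding genes of the leading 15 by TPM were the protease inhibitor Cst3 (17238 TPM), lysozyme Lyz2 (15358), the cysteine protease Ctss (14020), the class I light chain B2m (9765), the class II invariant chain Cd74 (9242), the sphingolipid activator precursor Psap (8779), the carboxypeptidase Ctsz (8339) and the actin gene Actb (6738). Further down the leading 30 stood Tmsb4x, an actin-binding peptide, at 6588 TPM, and Spp1, which encodes osteopontin, at 5471 TPM. Tyrobp, the signalling adaptor of Trem2, followed at 5038 TPM. Ctsb, Cotl1, Fcer1g, Cd68, Sh3bgrl3, Lgmn and Grn lay between 3167 and 4464 TPM.

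The order of these 30 was loose except at the top. Of 29 neighbouring pairs, 5 kept their order in all 6 libraries: Apoe above Ctsd, C1qa above C1qb, C1qb above Cst3, Ctss above C1qc and Ctsz above Actb. In 3 further pairs the order held in 5 libraries, in 20 pairs in 3 or 4, and in 1 pair in 2, so most neighbours did not differ beyond their spread. By biotype, 25 of the 30 were protein-coding. The exceptions were Gm42418 and Gm23935, described with the variable genes, Gm26377 and Gm22133, which lie inside Eef1a1 and Ftl1 on the same strand, and the pseudogene Gm14303. Several leading genes also overlap a gene on the other strand (Ctsb with Fdft1 and Ctsz with Nelfcd, for example), and the strand setting of the counting is not given in the sources used here.

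**Figure D1:**
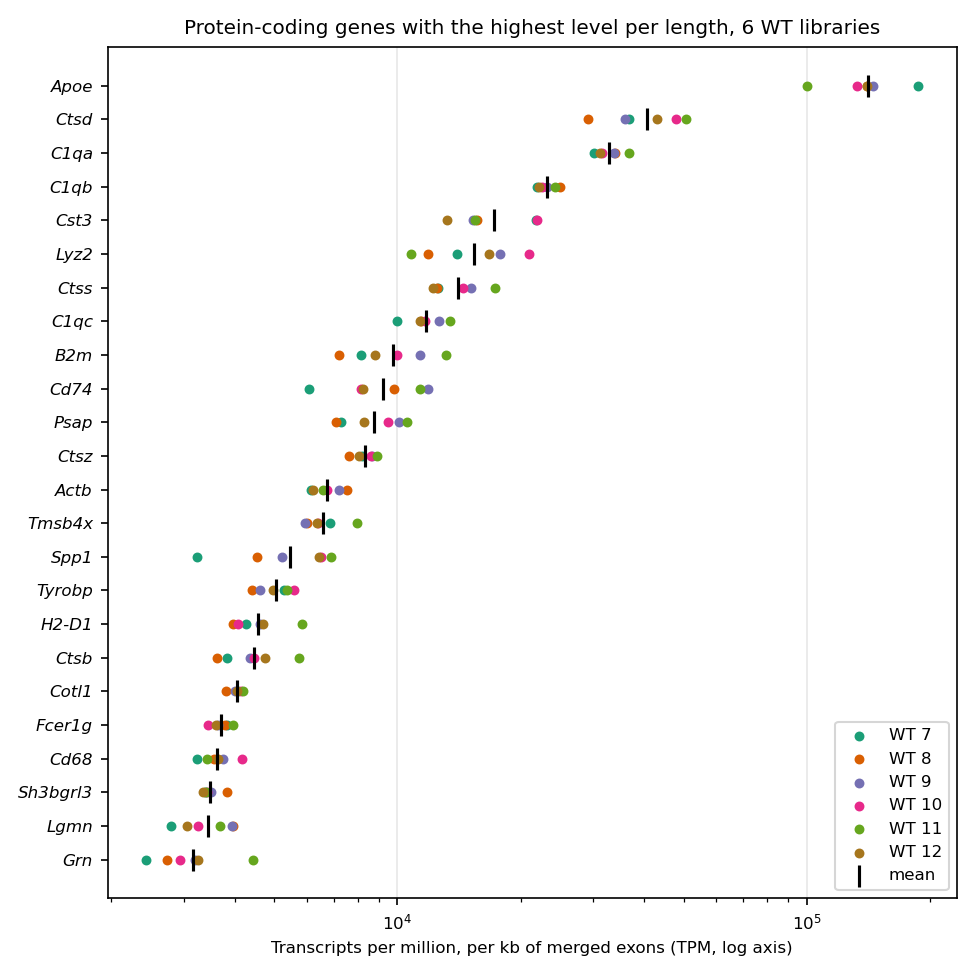
Level of 24 of the 25 leading protein-coding genes in TPM (x axis, log scale), with 1 point for each of the 6 WT libraries and a black tick for the mean. Apoe spans 99957 to 187449 TPM, and below C1qb most neighbouring genes overlap.

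Among 32 genes of resting microglia, 31 were detected. This list was chosen with earlier results of these data known, so its levels are a description and no test of the label microglia. Of the 32, 24 had a mean of 100 CPM or more, against 12.9% of all detected genes, and their median lay at the 98.0th TPM percentile of detected genes. The same 12.9% is the background for the counts at 100 CPM or more in the lists below. Those counts are over all members in the table, detected or not. The surface marker Tmem119 stood at 326, 395, 369, 377, 367 and 269 CPM in WT 7 to WT 12, lowest in WT 12. The fractalkine receptor Cx3cr1 stood at 880 to 1170 CPM with a median of 1028. The purine receptor P2ry12, which senses nucleotides from damaged cells, was far less steady, at 63.2, 30.2, 46.3, 79.5, 102 and 47.7 CPM. It was highest in WT 11 and lowest in WT 8, so that Tmem119 stood from 3.96 to 14.4 times above P2ry12 in TPM. P2ry12 overlaps Med12l on the other strand. The survival receptor Csf1r was read at 3592 to 4597 CPM. Trem2, the lipid-sensing receptor of activated microglia, which this list also holds, was read at 1456 to 2067 CPM. At the low end stood Siglech at 59.1 to 107 CPM, Gpr34 at 42.7 to 112 CPM and Slc2a5, a fructose transporter, at a mean of 0.985 CPM.

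All 17 transcription factors of microglial identity were detected, 8 of them at 100 CPM or more. Cebpa, Irf8 and Spi1 (which encodes PU.1) had mean CPM of 934, 769 and 663. Sall1, a factor that separates microglia from other macrophages, stood at 202 to 281 CPM. The mean log2 CPM of these factors ranged over 0.09 from the lowest to the highest library, the smallest range of the 40 lists. Fos, an immediate-early factor that tissue handling induces, was at a mean of 2.14 CPM, while its partners Junb and Jund were at 294 and 293 CPM and Egr1 at 58 CPM.

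The disease-associated list was also among the highest. Of its 36 members in the table, 34 were detected and 29 had a mean of 100 CPM or more, with a median at the 99.0th TPM percentile. It took 18.7% to 24% of all counts, most of it from Apoe and Ctsd. Lyz2 stood at 5565 to 10451 CPM, lowest in WT 11 and highest in WT 10. Spp1 was at 2118, 2972, 3358, 4053, 4440 and 4294 CPM in WT 7 to WT 12, lowest in WT 7. Gpnmb, a glycoprotein of lipid-laden phagocytes, was likewise lowest in WT 7 (2063 CPM) and highest in WT 12 (4506 CPM). The cystatin Cst7 and the galectin Lgals3 had mean CPM of 1039 and 1049, the receptor tyrosine kinase Axl 1082 and the lectin Clec7a 428. Itgax, an integrin chain of activated microglia, stood at 244 to 515 CPM and was highest in WT 10. Lpl, a lipase that frees fatty acids, was at 126 and 136 CPM in WT 8 and WT 9 and at 224 to 272 CPM in the others.

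Beside Apoe, the list of lipid transport and LXR targets was led by Psap and Npc2. Of the 33 genes of lipid transport and LXR targets, 33 were detected and 17 had a mean of 100 CPM or more. Psap stood at 7685 to 11294 CPM and Npc2, which hands cholesterol out of the lysosome, at 1751 to 2172 CPM. Its membrane partner Npc1 was at 160 to 235 CPM. The uptake receptor Lrp1 had a mean of 470 CPM, the LXR targets Abcg1 and Abca1, both cholesterol exporters, 236 and 67 CPM, and the lipid droplet coat gene Plin2 225 CPM. Abca1 ran from 34.1 CPM in WT 8 to 85.2 CPM in WT 10. Of the LXR genes themselves, Nr1h2 was at 97.6 CPM and Nr1h3 at 6.40 CPM. The genes that make cholesterol stood lower, with 23 of 24 detected, 1 at 100 CPM or more (Fdft1, which overlaps Ctsb on the other strand) and a median at the 43.7th TPM percentile. Hmgcs1, an early synthase of that pathway, was at 16.9 to 24.5 CPM.

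All 35 lysosomal hydrolases and cofactors were detected, and 31 had a mean of 100 CPM or more. They took 7.90% to 11.6% of all counts. Cathepsins led: Ctsb stood at 8691 to 13629 CPM, Ctss at 6709 to 9185 CPM, Ctsz at 4349 to 5026 CPM and Ctsl at 1099 to 1743 CPM. The protective protein Ctsa had a mean of 2193 CPM, the asparaginyl endopeptidase Lgmn 3148 CPM and progranulin Grn, whose peptides act in the lysosome, 4324 CPM. Ctsb, Ctsd, Ctsl, Psap and Grn were each highest in WT 11. Of the 27 genes of the lysosomal membrane and proton pump, 17 reached 100 CPM or more, with Laptm5 (3616 to 3970 CPM), Lamp1 (2030 to 2746 CPM) and Cd68 (1615 to 1988 CPM) at the top and pump subunits such as Atp6v1b2 (416 to 480 CPM) below. Lamp2 varied more, from 163 CPM in WT 8 to 297 CPM in WT 11.

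Uptake and Fc receptors were also high, with 22 of 29 genes (75.9%) at a mean of 100 CPM or more, against 12.9% of all detected genes. Itgb5, an integrin chain for apoptotic cell uptake, had a mean of 2429 CPM, the Fc receptor Fcgr3 1444 CPM, and the adaptors Tyrobp and Fcer1g 1320 and 1276 CPM. Per length, Tyrobp stood 5.01 to 6.53 times above Trem2. The Fc receptors Fcgr3, Fcgr1, Fcgr2b and Fcgr4 were each highest in WT 8; Fcgr4 reached 425 CPM there and 109 to 239 CPM in the others. Marco and Timd4, scavenger and phosphatidylserine receptors of peripheral macrophages, had means of 0.674 and 0.200 CPM.

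Of the complement list, 18 of 20 genes were detected and 8 had a mean of 100 CPM or more. After C1q came the integrin chain Itgam (mean 592 CPM), the receptor C3ar1 (346 CPM), C3 (238 to 522 CPM) and C4b (164 to 525 CPM). C4b and C3 were lowest in WT 7 and highest in WT 9, while C3ar1 kept to 303 to 372 CPM. Vsig4, a complement receptor of other resident macrophages, had no count in any library.

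Class II genes present peptides to helper T cells. The class II list also holds genes of other kinds, and its highest member was the protease Ctss at a mean of 7473 CPM. All 15 genes of the list were detected, and 9 had a mean of 100 CPM or more, against 12.9% of all detected genes. Cd74 stood at 4054, 6524, 7770, 5189, 7438 and 5590 CPM in WT 7 to WT 12. H2-Ab1 stood at 1013, 2238, 2135, 1469, 2334 and 1622 CPM, and H2-Aa at 859 to 2159 CPM. In these genes WT 7 was lowest and WT 8, WT 9 and WT 11 were highest, and H2-Ab1 stayed 1.53 to 1.88 times above H2-Aa in TPM. Their activator Ciita was low, at 4.87 to 22.5 CPM. The costimulator Cd86 was at 103 to 122 CPM, whereas Cd40 and Cd80 had means of 8.20 and 4.53 CPM. Of the class I list, 17 of 23 genes reached 100 CPM or more, led by H2-D1 (3991 to 5888 CPM), B2m (2450 to 4409 CPM) and H2-K1 (2508 to 4457 CPM), each highest in WT 11. H2-D1, H2-K1 and the H2-Q genes are close copies of each other, so reads may be divided among them.

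The 36 genes of the type I interferon response had a median of 30.7 CPM, against 19.2 CPM over all detected genes. Of them, 35 were detected and 5 had a mean of 100 CPM or more, or 13.9% against 12.9% of all detected genes, and none reached 1000 CPM. The antiviral membrane protein Ifitm3 stood at 103, 320, 208, 112, 142 and 171 CPM in WT 7 to WT 12, highest in WT 8. Ifit3, an RNA-binding antiviral protein, was highest in WT 11 (66.3 CPM). Both receptor chains were steady, Ifnar1 at 87.3 to 105 CPM and Ifnar2 at 174 to 195 CPM. Of the 19 genes of the interferon gamma list in the table, 15 were detected, and the median over the 19 was 19.8 CPM. A mean of 100 CPM or more was reached by 4, or 21.1% against 12.9% of all detected genes. The highest of the 4 was the receptor chain Ifngr1, at a mean of 286 CPM. The GTPase Gbp2 stood at 50.3, 221, 239, 109, 114 and 111 CPM in WT 7 to WT 12, and the transcription factor Irf1 at 127, 371, 277, 151, 149 and 160 CPM. The chemokine Cxcl9, which draws T cells, ran from 18.7 CPM in WT 7 to 107 CPM in WT 11, and Cxcl10 from 6.77 to 35.8 CPM. The interferon gamma receptor chains Ifngr1 (251 to 330 CPM) and Ifngr2 (164 to 221 CPM) varied little.

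Of the chemokine list, whose highest member was the receptor Cx3cr1, 17 of 24 genes were detected. Cxcl16 led the ligands at 413 to 608 CPM, Ccl6 followed at 144 to 237 CPM, and Ccl12, a monocyte attractant, was highest in WT 8 at 244 CPM against 52.1 to 124 CPM elsewhere. Ccl3 stood at 47.9 to 110 CPM. Among the 25 cytokine genes, 16 were detected, against 32.4% of all gene IDs, and 9 had a mean under 1 CPM. A mean of 100 CPM or more was reached by 3, or 12% against 12.9% of all detected genes. Tgfb1 was at 499 to 560 CPM and Csf1 at 157 to 234 CPM, whereas Il1b had a mean of 11.1 CPM, Tnf 6.73 CPM and Il6 0.0451 CPM, the last below the floor in each library. Of the pattern receptors, Tlr2 stood at 247 to 409 CPM, the lipopolysaccharide receptor Cd14 at 245 to 379 CPM, and Tlr4 had a mean of 13.4 CPM. The growth and TGF-beta receptor list was led by Csf1r, and Tgfbr2 and Tgfbr1 were at 556 to 707 and 207 to 480 CPM.

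**Figure D2:**
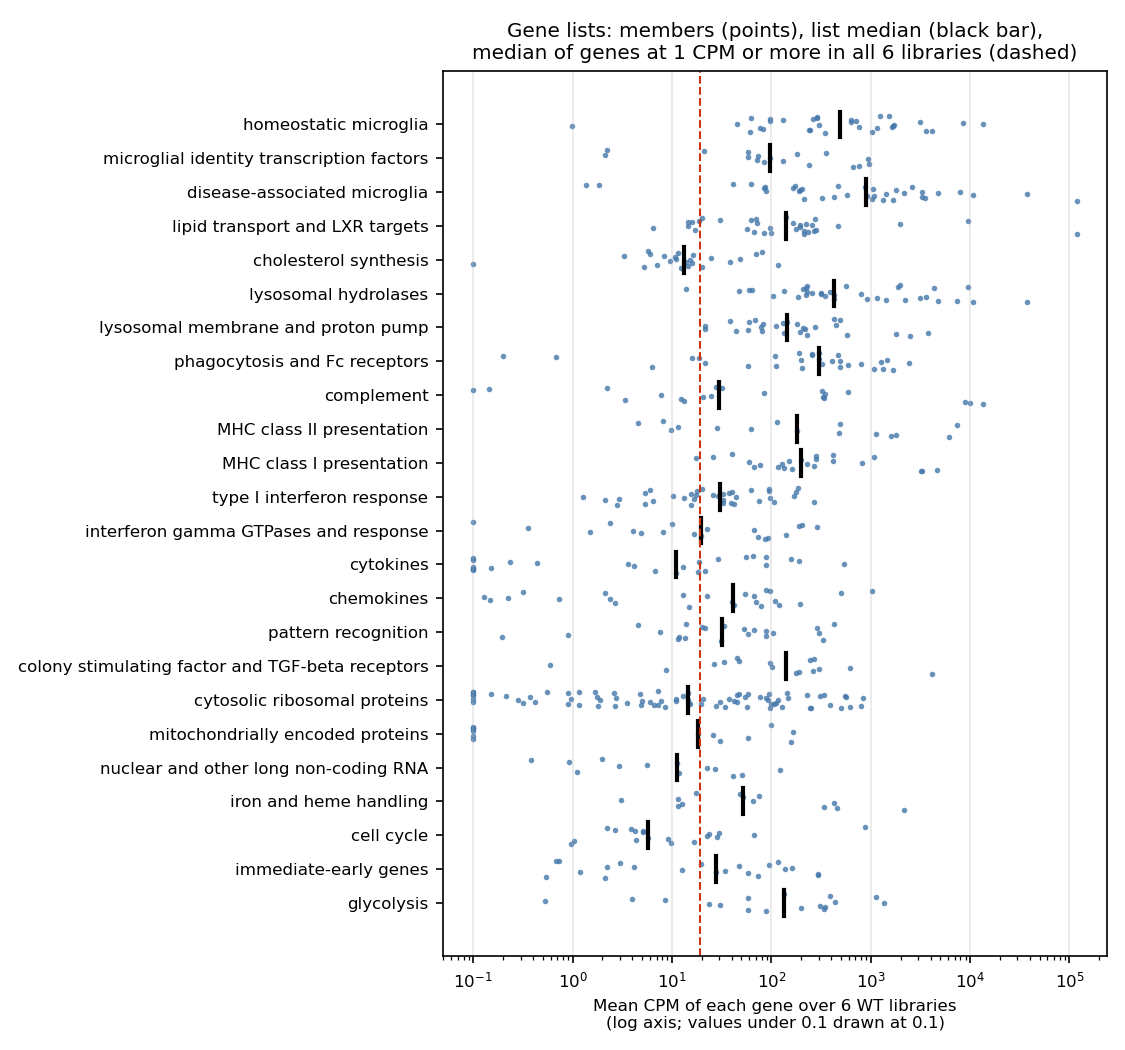
Mean CPM over the 6 WT libraries (x axis, log scale) of each member of 24 gene lists (points), with the list median as a black bar and the median of all detected genes, 19.2 CPM, as a dashed line. The disease-associated, homeostatic and lysosomal hydrolase medians lie far to the right of the line, the cholesterol synthesis, cytokine and cell cycle medians to its left.

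Housekeeping genes were read unevenly. Of the glycolytic genes, Aldoa was at 1305 to 1428 CPM and Pkm at 956 to 1277 CPM, but Gapdh had a mean of 0.523 CPM, Pgam1 4.0 CPM and Pgk1 8.59 CPM. Of 79 cytosolic ribosomal protein genes, 61 were detected, Rps3 had a mean of 846 CPM and Rpl8 802 CPM, while 16 had a mean under 1 CPM, among them Rps27 at 0.0157 CPM. Of 13 mitochondrially encoded protein genes, mt-Co1 and mt-Nd1 stood at means of 166 and 158 CPM and 5 (mt-Co2, mt-Co3, mt-Atp6, mt-Atp8 and mt-Nd4l) had no count in any library. Gapdh and many ribosomal protein genes have near-identical pseudogene copies, as mitochondrial genes have nuclear copies, and how reads with several positions were counted is not given, so the low values of these genes are uncertain as levels. The part of the counting in them was not tested. Ferritin shares this limit, with Fth1 at 1924 to 2422 CPM and Ftl1 at 353 to 533 CPM. Of the nuclear long non-coding RNAs, Malat1 stood at 24.2 to 57.1 CPM, Neat1 at 32.5 to 71.3 CPM and Xist, the X-inactivation RNA of female cells, at 5.51 to 22.6 CPM. Kdm6a, the gene deleted in the libraries not used here, was read at 3.06 to 5.85 CPM in the wild-type libraries.

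Summed over each list, markers of other cells stood lower than the homeostatic genes, but some single markers did not. The 32 homeostatic genes summed to 43174 to 51718 CPM, led by C1qa, which the complement list also holds, at a mean of 13467 CPM. The 14 oligodendrocyte markers summed to 1995 to 2348 CPM, 12 astrocyte markers to 611 to 727 CPM and 18 neuron markers to 293 to 438 CPM. Within the oligodendrocyte list Mbp, the gene for myelin basic protein, made up 1426 to 1719 CPM, above the microglial Cx3cr1 (mean 1042 CPM). Gfap, the astrocyte filament gene, was at 214 to 254 CPM, above the microglial P2ry12 (mean 61.5 CPM). Fewer cells of a type and less RNA per cell cannot be told apart in such pooled RNA, and neither can RNA carried over in the pull-down.

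Of the cells that enter the cord in EAE, T cells, NK cells and neutrophils left few reads in the markers that no other list holds. The 17 T and NK cell markers summed to 6.18 to 18.8 CPM, and 13 of them had a mean under 1 CPM. The 12 neutrophil markers held by no other list summed to 1.98 to 5.08 CPM, with Ly6g at 0 in every library. All 13 neutrophil markers summed to 210 to 304 CPM, led by a gene of another list at a mean of 261 CPM. Of the 10 monocyte markers held by no other list, Fn1 gave 209 to 627 of 233 to 659 CPM, whereas the defining receptor Ccr2 and the surface gene Ly6c2 had means of 0.318 and 0.314 CPM. The 9 dendritic cell markers held by no other list summed to 172 to 342 CPM, of which the actin-bundling gene Fscn1 gave a mean of 256 CPM, while Xcr1 and Clec9a, which define a class of these cells, had means of 0.367 and 0.356 CPM. Border macrophages, which line vessels and meninges, were represented by Stab1 (95.9 to 130 CPM), Ms4a7 (35 to 65.7 CPM) and Siglec1 (18.4 to 57.8 CPM), but their defining genes Mrc1, Cd163 and Lyve1 had means of 0.682, 0.0238 and 0.00786 CPM. The 9 B and plasma cell markers held by no other list summed to 182 to 266 CPM. They were led by Ighm at 164 to 249 CPM, with the B cell receptor partners Cd79b at 7.41 to 13 CPM and Cd79a at a mean of 0.0613 CPM. Fibroblast markers, such as Col1a1 (145 to 297 CPM), summed to 293 to 566 CPM.

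**Figure D3:**
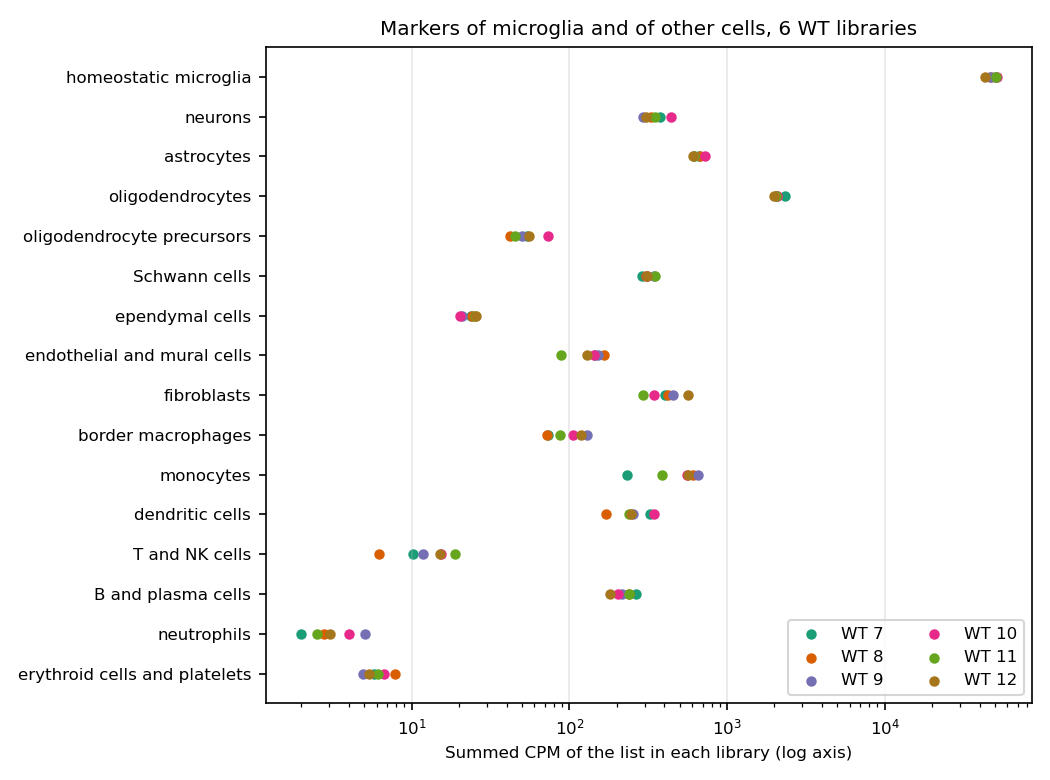
Summed CPM (x axis, log scale) of the homeostatic microglia list and of 15 marker lists of other cells, without members that microglial or functional lists also hold, with 1 point for each of the 6 WT libraries. The homeostatic list keeps members that functional lists also hold, such as C1qa, and sums to 43174 CPM or more in every library. T and NK cell markers sum to 18.8 CPM or less.

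Most genes were steady between libraries. Over 13863 genes, the common biological coefficient of variation (BCV, the spread between libraries beyond counting noise, as a share of the mean) was 0.149 and the gene-wise median 0.141, with quartiles of 0.116 and 0.175. A BCV of 0.4 or more was found for 150 genes (1.08%). Of the 86 genes with a mean of 1000 CPM or more, 31 had a coefficient of variation of CPM under 10%. The steadiest were the elongation factor Eef2 (3.10%), the actin-binding Cotl1 (3.22%) and the lipid hydrolase Abhd12 (3.27%). By list, the median BCV was 0.126 for the identity factors, 0.133 for lysosomal hydrolases, 0.139 for homeostatic genes and 0.159 for disease-associated genes. It was 0.206 for class II, 0.230 for type I interferon, 0.246 for chemokine, 0.307 for cell cycle and 0.355 for interferon gamma genes, of whose 16 members in the fit 6 had a BCV of 0.4 or more.

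**Figure D4:**
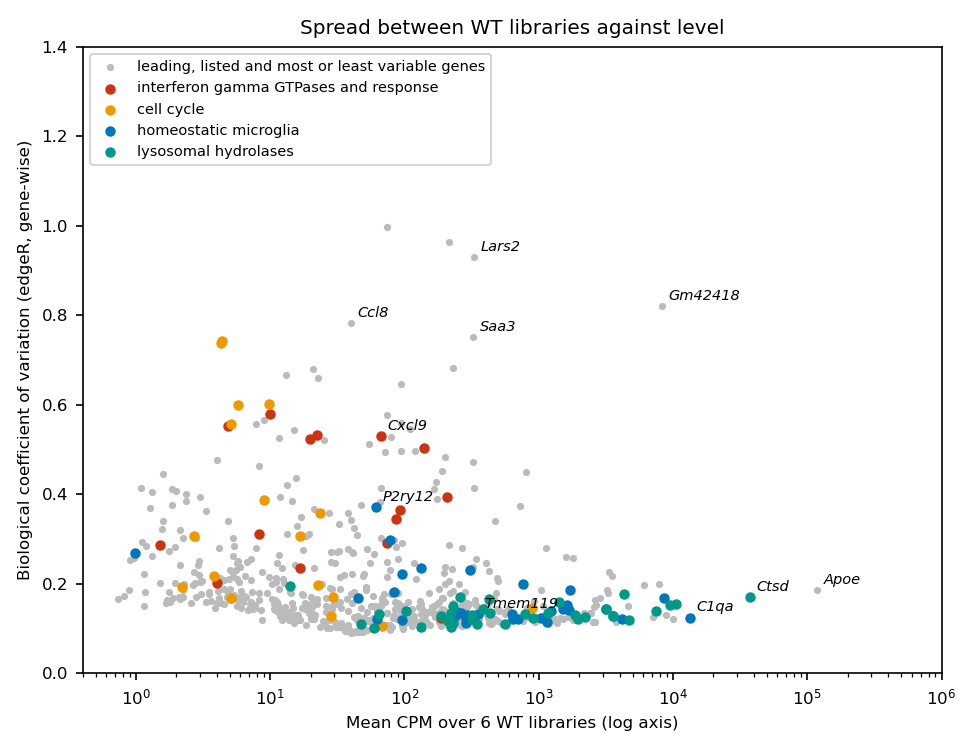
Gene-wise BCV (y axis) against mean CPM over the 6 WT libraries (x axis, log scale) for the leading, listed and most or least variable genes (grey), with 4 lists in colour. The highest of the coloured points are cell cycle and interferon gamma genes, and Gm42418 combines a high level with a BCV of 0.82.

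The 20 most variable established genes with a mean of 20 CPM or more had a BCV of 0.495 to 0.998. Among them were interferon and inflammation genes: the chemokines Ccl8, Ccl12, Cxcl9, Cxcl10 and Ccl5, the acute-phase gene Saa3, the complement factor Cfb, the GTPases Gbp2 and Ifi47, the cytokine-signalling inhibitor Socs3 and the itaconate enzyme Acod1. Of the 20, 7 were highest in WT 8, 7 in WT 9 and 12 lowest in WT 7. Saa3 stood at 153, 214, 860, 79.5, 298 and 352 CPM in WT 7 to WT 12. Socs3 stood at 36.1, 216, 131, 46.3, 52.2 and 87.4 CPM. Ccl8 stood at 14.1, 19.5, 79.2, 8.83, 54.1 and 62.9 CPM. So Saa3 and Ccl8 were highest in WT 9 and lowest in WT 10, and Socs3 was highest in WT 8 and lowest in WT 7.

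A second variable group, of 4 genes, was highest in WT 12, where none of the inflammatory genes named above was highest. Its lowest library, WT 10, was also the lowest for Saa3, Ccl8 and Ccl5. Gm42418, a locus that contains ribosomal RNA repeat sequence, took 0.618%, 1.55%, 0.277%, 0.165%, 0.549% and 1.84% of the counts in WT 7 to WT 12. Lars2, the gene of mitochondrial leucyl-tRNA synthetase, stood at 166, 557, 123, 56.9, 159 and 926 CPM, and Mir6236 at 32.7, 122, 25.8, 10.2, 33 and 222 CPM. The short locus Gm23935 stood at 123, 368, 75.7, 27.7, 104 and 597 CPM. In all 4, WT 12 and WT 8 were highest and WT 10 lowest. Igf2, a growth factor gene of the meninges, stood at 349, 390, 256, 133, 38.9 and 202 CPM, lowest in WT 11. Igfbp5 was lowest there too, at 22 CPM against 45.6 to 115 CPM, and so was the fibroblast list mean, at 3.69 log2 CPM against 4.36 to 4.70.

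The list means differed between libraries too. The mean log2 CPM of the interferon gamma list was 4.01, 5.51, 5.36, 4.59, 4.93 and 4.90 in WT 7 to WT 12. That of the class II list was 7.0, 7.68, 7.73, 7.29, 7.54 and 7.30. The cell cycle list followed another order, at 2.59, 3.18, 3.69, 3.39, 3.98 and 4.09, with Top2a, which untangles replicated DNA, at 2.59 CPM in WT 7 and 17.5 CPM in WT 11. WT 7, the library with the largest total, was the lowest in all 3 lists and highest in Apoe, and the part of depth in this was not tested. The homeostatic mean moved only between 8.57 and 8.89.

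**Figure D5:**
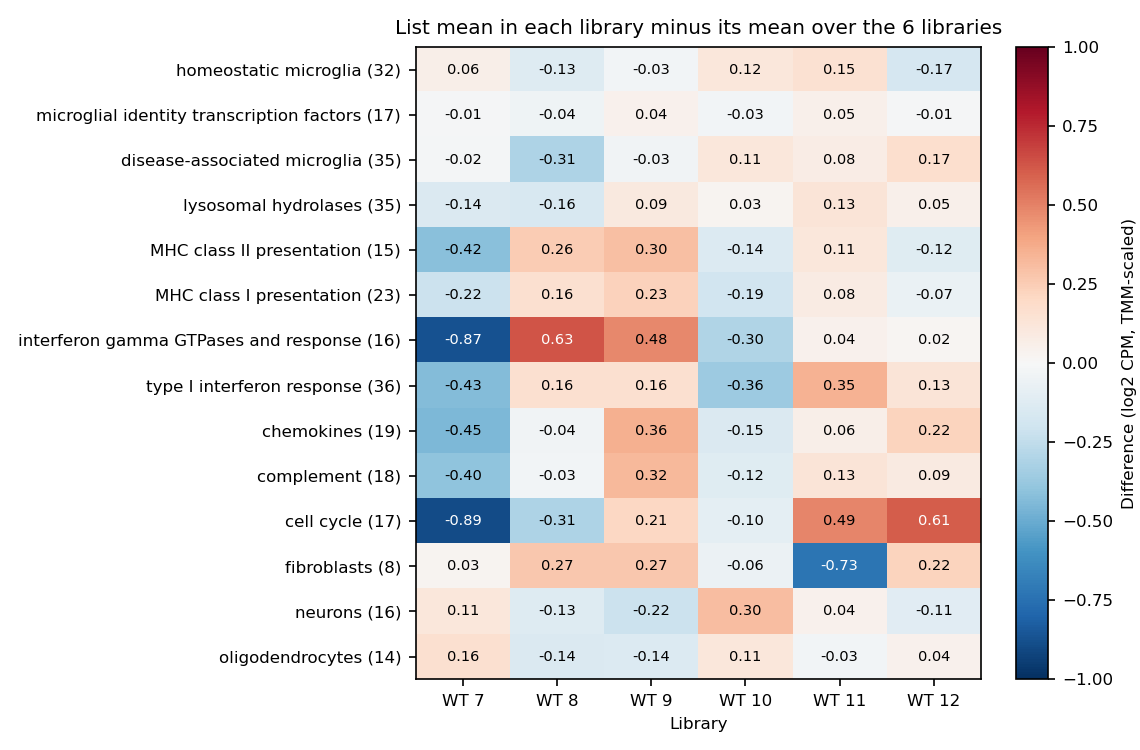
Mean log2 CPM (TMM-scaled) of 14 gene lists in each WT library, minus the mean of that list over the 6 libraries, with the number of genes in brackets. WT 7 lies 0.87 below the mean in the interferon gamma list and 0.89 below in the cell cycle list, and the identity transcription factors stay within 0.05.

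Of 4 relations between list means across the 6 libraries, none reached an adjusted p of 0.05 (exact two-sided permutation of all 720 pairings). The disease-associated and homeostatic means, whose lists share 1 gene, gave Pearson's r = 0.30 (exact p = 0.590, adjusted 0.590) and Spearman's rho = 0.09 (exact p = 0.919), and without the 2 libraries farthest from the median r was 0.86. It also turned to -0.25 without WT 8. The type I interferon and class II means gave r = 0.78 (exact p = 0.0681, adjusted 0.214) and rho = 0.83 (exact p = 0.0583), but r = 0.05 without the 2 farthest libraries, so the relation rests on those. With the median of members in place of the mean it was 0.57. Neuron markers gave r = 0.72 with the homeostatic list (exact p = 0.107, adjusted 0.214; rho = 0.60, exact p = 0.242), and r = 0.86 without 2 libraries but 0.16 with the median of members. With the disease-associated list they gave r = 0.40 (exact p = 0.447, adjusted 0.590; rho = 0.54, exact p = 0.297), and r = 0.29 without 2 libraries. These values come from the same libraries and share their depth and scaling.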

How the data were processed

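Spinal cord RNA from Tmem119-Cre RiboTag mice was sequenced in 12 libraries, of which the 6 wild-type ones are used. Per the labels' protocols, extraction used the Direct-zol RNA MiniPrep Plus kit and library construction the KAPA Stranded RNA-Seq kit with mRNA enrichment. The submitters' processing notes name bcl2fastq 2.17, FastQC, Trimmomatic and the build mm10. Which aligner, counter, strand setting and annotation release were used is not stated there. The authors deposited raw read counts, whole numbers for 39017 Ensembl gene IDs, of which 37693 were annotated with GENCODE M21 (mm10) for symbols, coordinates and exon length; the others held at most 0.522% of the counts. Promoter sequences are from RefSeq (GRCm38.p6), of which 18173 genes of the table had one.

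CPM used the library total. TPM used merged exon length and was rescaled to the same sum in each library. Spread was fitted with edgeR 4.0.16 in R 4.3.3 (filterByExpr, TMM, intercept only, robust gene-wise dispersions), BCV being the root of the dispersion, and was tested on simulated data, where high gene-wise values came out lower than simulated. List means used log2 CPM with a prior count of 2. No pair of libraries was a duplicate (chi-square per degree of freedom at least 24.4 over 15 pairs). The labels name no batch.

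The 40 gene lists (747 genes, 734 in the table) and the members were chosen with earlier results of these data known. The rule names the 5 markers, the 30 leading genes by CPM and by TPM, from each list the first 4 and the 6 of highest CPM, and the 20 most and 20 least variable genes of 20 CPM or more on average. The text names a subset, and a few genes are not reported here. Named outside the rule, after their values were seen, were Abca1, Abcg1, Abhd12, C4b, Cd40, Cd80, Cd86, Ciita, Clec9a, Cst7, Ctsa, Ctsl, Egr1, Fcgr1, Fcgr2b, Fcgr4, Gapdh, Gpr34, Ifnar1, Il6, Itgax, Kdm6a, Lgals3, Marco, Npc1, Nr1h2, Nr1h3, Pgam1, Pgk1, Plin2, Rps27, Slc2a5, Timd4, Vsig4, 5 mitochondrial genes with no count, the motif matches Atp6v1a, Cln3, Gla and Mcoln1, and overlapping genes. Alternatives were TMM, RLE and totals without Apoe, other detection limits, other lengths, other filters, DESeq2 1.42.0, and the omission of each library in turn.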

Additional observations from a re-analysis of the deposited data

Results flagged for a closer look

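Each of 213 values (genes named and list means) was checked for a lone library, one whose gap to the nearest other relative to the whole range of the 6 libraries exceeded Dixon's critical value. This happened for 9 of the 213 values, no more than the share of about 1 in 20 that chance alone flags. The values below therefore cannot be told apart from chance. WT 8 stood alone at the top for the chemokine Ccl12 (244 CPM, the others 52.1 to 124), the Fc receptor Fcgr3 (1942 CPM, the others 1248 to 1449) and Sh3bgrl3 (1247 CPM, the others 1066 to 1120). WT 9 stood alone at the top for the acute-phase gene Saa3 (860 CPM, the others 79.5 to 352) and for the scavenger receptor Marco (3.25 CPM, the others 0.0465 to 0.360). WT 7 was alone at the top for the myelin gene Mbp (1719 CPM, the others 1426 to 1519). WT 11 was alone at the bottom for the fibroblast list, with a mean of 3.69 log2 CPM against 4.36 to 4.70. For Rps27 (0.0942 CPM in WT 9) and Lyve1 (0.0472 CPM in WT 12) every other library was at 0, and the single values lie below the floor of 3 counts.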

How the results depend on the processing

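No paired analysis was possible because the replicate numbers WT 7 to WT 12 belong to 1 group and no comparison of groups was made. With Apoe left out of the totals, Tmem119 rose from 351 to 398 CPM and Cx3cr1 from 1042 to 1181 CPM, and the 10 and 50 leading genes held 13.9% and 26.7% of the counts. Detected genes numbered 12668 with TMM-scaled totals, 13509 at 1 CPM in at least 3 libraries and 13969 at 10 counts in all 6. Of the 30 leading genes by TPM, 27 stayed with the length of the longest transcript. The common BCV was 0.156 with no filter and 0.142 with a mean of at least 5 CPM, the gene-wise median 0.200 and 0.125. With the raw coefficient of variation of CPM in place of BCV, list medians were 0.147 (homeostatic), 0.182 (disease-associated), 0.243 (class II), 0.278 (type I interferon), 0.406 (interferon gamma), 0.296 (chemokines) and 0.358 (cell cycle). With each library omitted in turn, the common BCV ran from 0.143 to 0.158, the gene-wise median from 0.138 to 0.151, and the list medians from 0.134 to 0.144 (homeostatic), 0.117 to 0.134 (identity factors), 0.144 to 0.165 (disease-associated), 0.121 to 0.140 (lysosomal hydrolases), 0.168 to 0.211 (class II), 0.183 to 0.240 (type I interferon), 0.262 to 0.385 (interferon gamma), 0.192 to 0.275 (chemokines) and 0.210 to 0.297 (cell cycle). The lowest class II, type I interferon, interferon gamma, chemokine and cell cycle values all came without WT 7. The relation of the disease-associated and homeostatic means turned to r = -0.27 with the median of members and ran from -0.25 to 0.93 with each library omitted; the cause was not tested. In 30 other recalculations of the 4 relations the sign stayed and no adjusted p reached 0.05, but the size could move far, as for neuron markers with the homeostatic list (r = 0.16 with the median of members). In 451 other recalculations of levels, shares, BCV and counts, the value moved by less than its spread, or by at most 1.5 times for a count. Library totals of 20386143 to 26296071 counts leave genes under about 0.147 CPM unreadable.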

Other observations

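The values here were chosen after they had been seen and carry no test. Fkbp5, Tsc22d3 and Per1, which glucocorticoid hormone is known to induce, were high in the same libraries. Fkbp5 stood at 99.9, 338, 158, 292, 127 and 120 CPM in WT 7 to WT 12, Tsc22d3 at 41.5, 97.2, 58.2, 111, 49.3 and 39.6 CPM, and Per1 at 30.8, 77.6, 39.5, 70.9, 34.3 and 29.4 CPM. In each of them WT 8 and WT 10 were above the other libraries, an order that the interferon genes did not follow, since Gbp2 stood at 221 CPM in WT 8 and 109 CPM in WT 10.

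Another set shared its order without a known link to immune response. Trp53bp1, a gene of DNA break repair, stood at 870, 893, 673, 1559, 428 and 398 CPM in WT 7 to WT 12, and the adhesion adaptor gene Bcar1 at 744, 938, 619, 1226, 459 and 382 CPM. Both were highest in WT 10 and lowest in WT 12. Tubgcp4, which overlaps Trp53bp1 on the other strand, followed it at 87.6 to 314 CPM, and without a stated strand setting the reads of the pair cannot be told apart.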
